A study of Mus musculus with 4 samples.

Results

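Cells that carried a nonproductive TRA rearrangement were found in 3784 of the 13345 called T cells of pancreatic islets. A member was a barcode that the deposited tables call a cell and that held at least 1 high-confidence TRA contig (the alpha chain of the T-cell receptor) with both its V and its J segment named and not marked productive. No expression level or clone size entered the choice. The 3784 cells held 3903 such contigs: 113 cells had 2 and 3 cells had 3 or more. The contig tables came from single-cell receptor sequencing of 4 libraries, 2 labelled NOD and 2 labelled Tet2KO NOD, called after their set numbers NOD 1, NOD 2, Tet2KO NOD 1 and then Tet2KO NOD 2. Where 4 values stand in a row, they follow this order of libraries. NOD mice develop autoimmune diabetes spontaneously, and the NOD libraries carry the genotype label WT. Tet2KO NOD mice lack Tet2, an enzyme that oxidises methylated cytosine in DNA; per the labels, the Tet2-/- allele came from B6 breeders and was crossed to NOD females for over 14 generations. No treatment is named for either group. Islets of 4 to 6 mice were pooled for a genotype, so a library is a pool and not a mouse. The series' text gives 10 to 13 weeks as the age, whereas the labels' protocol counts those weeks from an event written "BTM" and names donors of bone marrow, so neither age nor transplantation was settled. The same protocol describes nuclei, and the sources used here do not give whether the receptor libraries were made from nuclei or from whole cells.

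The T-cell receptor alpha chain is made in the thymus by joining 1 of many TRAV segments to 1 of many TRAJ segments. Bases are added and removed at the join, so many of them put the J segment out of the reading frame of the V segment and code for no receptor. Both chromosomes rearrange at the same stage, and each can do so repeatedly, using V segments farther from and J segments nearer to the constant segment TRAC. A join that codes for no protein is not tested for binding to self peptides, and its V and J use therefore records recombination without selection of the chain, although the cell that carries it was selected through its other TRA. TRAJ numbers fall from the V side (TRAJ58) to the TRAC side (TRAJ2). In the reference GRCm38 the TRAV genes lie between positions 52427928 and 53977678 of chromosome 14, the TRAJ genes between 54155005 and 54218842, and TRAC between 54220521 and 54224206, all read on the plus strand.

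The junctions of 4 clones, 1 from each library, show what the deposited sequence of a nonproductive join looks like beside the productive join of the same cells. Each is a CDR3 nucleotide sequence as deposited, the stretch across the join. Capitals mark the V segment's own cysteine codon, with which a CDR3 starts, and the J segment's own last CDR3 codon. The NOD 1 clone is the one with the most cells sharing a nonproductive join in that library; the other 3 were chosen after their values were seen, because their out-of-frame junction was deposited.
NOD 1 nonproductive TRAV6N-5 and TRAJ50: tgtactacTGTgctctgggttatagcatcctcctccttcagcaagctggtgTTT
NOD 1 productive TRAV16N and TRAJ42: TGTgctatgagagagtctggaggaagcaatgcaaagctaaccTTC
NOD 2 nonproductive TRAV6-2 and TRAJ16: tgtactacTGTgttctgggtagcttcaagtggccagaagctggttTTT
NOD 2 productive TRAV2 and TRAJ30: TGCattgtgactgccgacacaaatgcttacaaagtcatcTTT
Tet2KO NOD 1 nonproductive TRAV6N-5 and TRAJ30: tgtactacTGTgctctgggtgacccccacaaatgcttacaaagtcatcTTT
Tet2KO NOD 1 productive TRAV5N-4 and TRAJ42: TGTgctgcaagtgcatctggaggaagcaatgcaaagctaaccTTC
Tet2KO NOD 2 nonproductive TRAV12N-2 and TRAJ47: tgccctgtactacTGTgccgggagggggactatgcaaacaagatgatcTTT
Tet2KO NOD 2 productive TRAV9-1 and TRAJ40: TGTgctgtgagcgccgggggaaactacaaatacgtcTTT

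In each of these nonproductive sequences the deposited CDR3 did not start at the V segment's cysteine codon but at another cysteine codon 8 or 13 bases upstream, in another frame. The distance from the V codon to the end of the J codon was 46, 40, 43 and 38 bases, which leaves 1, 1, 1 and 2 bases after division by 3. The productive junctions were 45, 42, 45 and 39 bases long, all multiples of 3. The NOD 1 join was read in 25 of the 33 cells of its clone, and the others in 7 of 15, 7 of 7 and 3 of 3 cells. The NOD 1 clone carried TRBV13-3 as its beta chain V, and the same nonproductive sequence was deposited for all 25 of its members.

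The share of called cells that carried a nonproductive TRA was close in the 4 libraries. It was 27.0% (1847 of 6835 cells, Wilson 95% interval 26.0 to 28.1) in NOD 1 and 31.5% (911 of 2889, 29.9 to 33.3) in NOD 2. It was 28.2% (551 of 1957, 26.2 to 30.2) in Tet2KO NOD 1 and 28.5% (475 of 1664, 26.4 to 30.8) in Tet2KO NOD 2. The intervals cover counting error only, and they treat cells of 1 clone as independent, which they are not. NOD 2 was the highest library and NOD 1 the lowest, so the genotypes overlapped, at 29.3% ± 3.19 in the NOD libraries against 28.4% ± 0.276 in the Tet2KO NOD libraries (SD, n = 2 libraries each; exact two-sided permutation p = 1, where the smallest p that 6 assignments of libraries allow is 0.333). Contigs with at least 2 UMIs (unique molecular identifiers, which count captured RNA molecules) left a mean share of 21.0% against 28.8% over the 4 libraries, since 28.0% of the nonproductive contigs rested on 1 UMI. The share counts cells in which such an RNA was read, not cells whose DNA holds such a join. Taken over clones in place of cells, the share was 26.7%, 32.3%, 29.1% and 30.6%.

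The tables held 220516119, 140478435, 114106599 and 85137263 reads. The member cells carried T-cell chains: 3487 had 1 productive TRB (the beta chain), 224 had 2 or more and 73 had none. Members held 18 contigs of TRG or TRD, the chains of gamma delta T cells, and 0 of IGH, IGK or IGL, the chains of B cells. Members with 2 or more productive TRB, which can be 2 cells under 1 barcode, made up 7.15%, 5.16%, 3.63% and 5.26% of the members of the 4 libraries, against 5.23%, 4.04%, 3.27% and 3.45% of the other called cells. Members also had more TRB UMIs, with medians of 12, 15, 11 and 13 against 10, 12, 9 and 10 in the other cells, whereas productive TRA UMIs had medians of 6, 7, 6 and 6 against 6, 6, 5 and 6. Among cells with exactly 1 productive TRA, the share of members was 30.9%, 35.9%, 27.2% and 38.1% at 1 or 2 UMIs of that TRA. It was 26.1%, 29.3%, 28.1% and 26.7% at 3 to 5 UMIs and 28.1%, 34.9%, 28.1% and 29.1% at 6 to 10. At 11 or more it was 36.0%, 38.3%, 37.0% and 31.9%. The part that doublets take in the share of members was not tested. Between 4 and 30 called barcodes were shared by any 2 libraries, and leaving those cells out gave a mean share of 28.8%.

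Of the members, 3186 carried exactly 1 productive TRA, 110 carried 2 or more, and 488 carried none. The nonproductive contig of the 3354 contigs in cells with a productive TRA was rarely a copy of it: 1 had the same V and J name, 6 the same V and 216 (6.44%) the same J. The same CDR3 nucleotide sequence occurred in 31 of them.

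Most nonproductive contigs spanned the whole V and J, and many of these had no CDR3 given. Of the 3903 contigs, 3155 (80.8%) were full length by the flag of the deposited tables. Full-length contigs with no CDR3 given numbered 1987, or 50.9% of all contigs, and made up 49.7%, 54.5%, 47.1% and 53.1% by library. A further 1168 were full length with a CDR3, 450 had a CDR3 but were not full length, and 298 had neither. The full-length share was 81.1% in NOD 1, 80.4% in NOD 2, 78.9% in Tet2KO NOD 1 and 83.1% in Tet2KO NOD 2. A stop codon inside the deposited CDR3 occurred in 4 contigs.

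Among contigs that could be placed, out-of-frame joins made up more of the full-length ones than of the others. Both ends of the CDR3 could be placed on the reference V and J for 1129 contigs. Placing needs a deposited CDR3, and the share placed differed by V segment. It was 93 of 101 contigs for TRAV6N-5, 6 of 144 for TRAV13-2 and 12 of 147 for TRAV3-3. The frames below thus describe the placed contigs only. Contigs are counted in each cell, so the join of 1 clone can enter repeatedly. Among full-length contigs so placed, 738 of 808 (91.3%) had V and J in different frames: 91.6% in NOD 1, 90.7% in NOD 2, 92.9% in Tet2KO NOD 1 and 89.3% in Tet2KO NOD 2. Among contigs that were not full length it was 133 of 321 (41.4%), or 40.7%, 34.8%, 38.7% and 60.0% by library, and 188 joins were in frame. Productive contigs set the frame of each segment, so their own frames are no check of it. Among the contigs that could be placed, those marked nonproductive were thus of 2 kinds: 871 were out-of-frame joins, and 258 were in-frame joins, of which 188 lay on contigs not read in full.

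The in-frame kind lay mostly in cells with no productive TRA. In these cells 39.2% ± 8.09 of the nonproductive contigs were not full length, against 15.7% ± 0.891 in cells with a productive TRA (SD, n = 4 libraries). The in-frame share of the placed junctions was 65.6%, 75.5%, 75.5% and 65.5% by library in the cells without a productive TRA. It was 9.83%, 12.6%, 4.92% and 7.02% in the cells with one. The difference, 61.9 ± 6.46 percentage points, had the same direction in 4 of 4 libraries (exact two-sided sign-flip permutation p = 0.125, the smallest that 4 libraries allow).

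A few segments supplied many of the in-frame nonproductive contigs. Of the 258 in-frame contigs, 77 carried TRAV12N-2, 55 carried TRAJ35, 14 of these carried both, and 140 carried neither. Contigs with TRAV12N-2 were not full length in 236 of 324 cases (72.8%) and those with TRAJ35 in 66 of 98 (67.3%), against 13.2% of all the others. By library, 113 of 172, 42 of 56, 55 of 66 and 26 of 30 TRAV12N-2 contigs were not full length, and 25 of 42, 15 of 19, 24 of 29 and 2 of 8 TRAJ35 contigs. Of the TRAJ35 contigs that could be placed, 55 of 69 were in frame: 19 of 25, 9 of 9, 25 of 27 and, in Tet2KO NOD 2, 2 of 8. In Tet2KO NOD 1 the 29 TRAJ35 contigs stood beside 5 TRAJ35 joins among cells with 1 productive TRA, where each clone counts once. Both segments also occurred in productive TRA, with 395 contigs for TRAV12N-2 and 105 for TRAJ35. A V or J count that includes these contigs is therefore partly a count of in-frame joins, and for TRAV12N-2 this is stated again beside its result.

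In 1 clone a nonproductive contig repeated a productive TRA of the clone. In NOD 1, 157 cells shared 1 TRBV16 beta chain, that of the clone with a TRAV18 alpha chain. TRAV18 was productive in 119 of these cells and TRAV5-4 in 136, and both were productive in 106. A further 18 cells carried TRAV18 as a nonproductive contig. All 18 were not full length and all had the CDR3 sequence that the clone's productive TRAV18 contigs have, and 15 of them stood beside a productive TRAV5-4. None of the nonproductive TRAV18 contigs could be placed for frame. Counting contigs of either kind, 122 of the 157 cells carried both TRA.

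Cells of 1 clone shared their nonproductive join. A join is made in the thymus and is passed on to all daughters of a T cell, as the receptor itself is. Among 303 clones (identical productive TRA and TRB) with at least 2 cells that had a nonproductive join, 1160 of 1215 such cells (95.5%, Wilson 94.2 to 96.5) carried the join most common in their clone, judged by the V and J names of the nonproductive contig with the most UMIs. The share was 96.9% in NOD 1, 94.4% in NOD 2, 91.4% in Tet2KO NOD 1 and 97.4% in Tet2KO NOD 2. In 268 clones (88.4%) all such cells carried the same join. The interval treats cells as independent, which cells of 1 clone are not. The most common join was taken from these same cells, so at least 1 cell in each clone carries it by construction.

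The join was read in about as many cells of its clone as it was missed. In the same 303 clones it was read in 51.2% of the 2264 cells (49.2 to 53.3), and in 51.5%, 54.4%, 46.7% and 51.6% by library. These clones were taken because at least 2 cells showed the join, which raises this share. The interval again treats cells of a clone as independent. The clone of each library with the most cells sharing a join had it in 25 of 33 cells (NOD 1, TRAV6N-5 with TRAJ50), 29 of 36 (NOD 2, TRAV13N-3 with TRAJ45), 19 of 21 (Tet2KO NOD 1, TRAV3-3 with TRAJ28) and 10 of 15 (Tet2KO NOD 2, TRAV7-1 with TRAJ37). In these clones each member's nonproductive contig with the most UMIs was this join. The NOD 2 and both Tet2KO NOD joins had no CDR3 deposited. Their productive TRA were TRAV16N with TRAJ42, TRAV12N-2 with TRAJ49, TRAV14-1 with TRAJ18 and TRAV4-3 with TRAJ30.

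Cells of clones with 2 or more cells were members more often than single cells in every library, at 34.7% against 25.04%, 36.8% against 32.6%, 32.1% against 26.0% and 30.9% against 29.9%. Cells of a clone share their join and are not independent, so these shares were given no test. The cells of the larger clones also had more productive TRA UMIs, with medians of 7 in each library against 5, 6, 4 and 5. The part of depth in this difference was not tested.

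For the comparison of both alleles, pairs were taken from cells with exactly 1 productive TRA, exactly 1 nonproductive V and J pair and at most 1 productive TRB, and each clone with its join counted once. This gave 2136 joins from 3011 cells: 990 in NOD 1, 559 in NOD 2, 278 in Tet2KO NOD 1 and 309 in Tet2KO NOD 2. Of all members, 773 cells were left out by these conditions.

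The J segments of both alleles lay near each other. The rank correlation of the TRAJ number of the nonproductive with that of the productive TRA was 0.695 in NOD 1, 0.676 in NOD 2, 0.741 in Tet2KO NOD 1 and 0.653 in Tet2KO NOD 2, over the joins counted above (mean 0.692 ± 0.0373, SD, n = 4 libraries). It is given as a description, since the joins of a library share its mice and its depth. The median distance between both J segments was 7 TRAJ numbers in each library, and 41.2% ± 1.39 of pairs lay within 5 numbers. The same J was used on both alleles in 5.59% ± 1.91. The plot of both J segments by library shows the points along the diagonal and fewer in the corners, where 1 allele used an early and the other a late J.

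**Figure D1:**
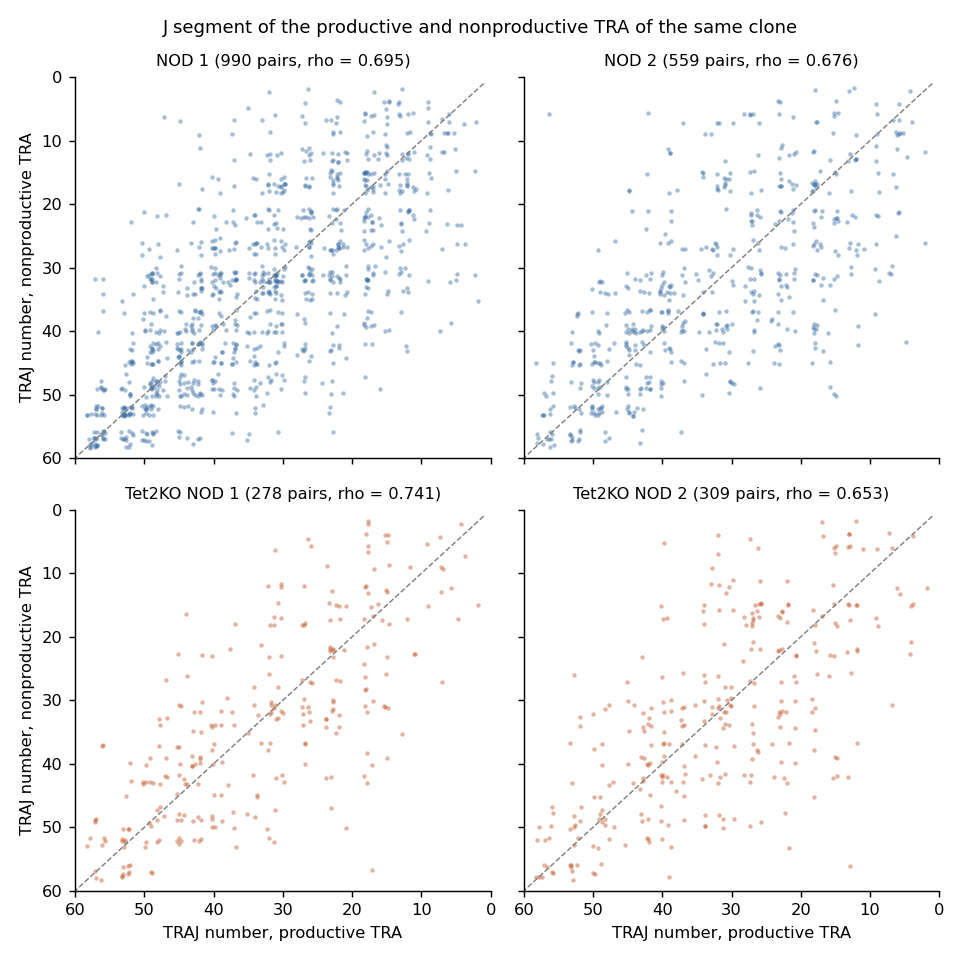
TRAJ number of the productive (horizontal) and nonproductive (vertical) TRA of the same clone in the 4 libraries. Each clone and join is 1 point, with small random offsets. Both axes run from the V side (60, left and bottom) to the TRAC side (0), and the dashed line marks the same J. Points follow the dashed line in each panel, with rank correlations of 0.653 to 0.741.

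When the productive TRA used a J on the V side, the nonproductive TRA did too. With a productive J from TRAJ58 to TRAJ40, the mean nonproductive TRAJ number was 43.9, 43.8, 44.6 and 43.6 (mean 44.0 ± 0.434). With a productive J from TRAJ39 to TRAJ21 it was 30.2, 28.9, 30.0 and 30.1 (29.8 ± 0.60). With a productive J from TRAJ20 to TRAJ2 it was 20.3, 22.3, 18.9 and 19.7 (20.3 ± 1.46). The ranges of the 4 libraries did not overlap between these groups. A nonproductive J in TRAJ20 to TRAJ2 occurred in 1.85%, 2.31%, 0.885% and 2.86% of pairs whose productive J was in TRAJ58 to TRAJ40, and in 52.7%, 43.0%, 58.6% and 56.7% of those whose productive J was itself in TRAJ20 to TRAJ2. In the opposite corner, a nonproductive J in TRAJ58 to TRAJ40 occurred in 4.43%, 10.9%, 6.90% and 8.33% of pairs whose productive J was in TRAJ20 to TRAJ2. These shares are of fewer pairs: 203, 128, 58 and 60, against 378, 216, 113 and 105 with a productive J in TRAJ58 to TRAJ40. Both corners thus hold few pairs.

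**Figure D2:**
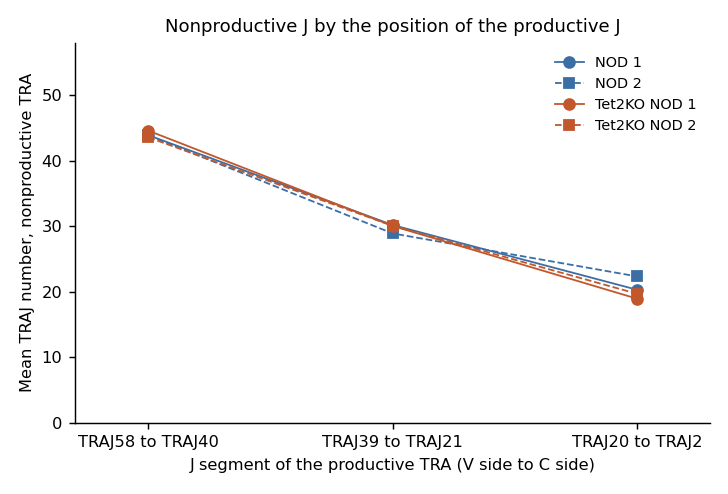
Mean TRAJ number of the nonproductive TRA (vertical) by the J segment of the productive TRA of the same clone in 3 stretches of the locus (horizontal), 1 line for each library. All 4 lines fall from about 44.0 to 29.8 to 20.3 and lie close together.

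The most like set of cells gave a correlation of similar size. Cells with 2 productive TRA and no nonproductive TRA (1412 cells before the limit on TRB) had rank correlations between both J numbers of 0.610, 0.671, 0.686 and 0.683. The correlation of the nonproductive pairs was higher by 0.0290 ± 0.0510 and was the higher one in 3 of 4 libraries (exact two-sided sign-flip permutation p = 0.375).

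The mean position of the J segment hardly differed between both classes. The mean TRAJ number was 33.4, 33.2, 33.6 and 32.6 for nonproductive and 33.4, 32.7, 33.2 and 32.3 for productive TRA. The nonproductive J was 0.318 ± 0.225 TRAJ numbers nearer to the V side, in 4 of 4 libraries, which is 0.371 ± 0.231 kb of the genome (exact two-sided sign-flip permutation p = 0.125, the smallest possible, for each). The direction was not kept throughout: with each cell counted once the differences were 0.0727, -0.278, -0.0276 and 0.689 TRAJ numbers. That of NOD 1, 0.0162, was -0.0205 with nonproductive contigs of the same J as the productive TRA left out. The nonproductive J lay nearer to the V side than the productive J in 46.8% ± 0.854 of pairs and nearer to TRAC in 47.6% ± 1.38. Within the classes the TRAJ number had an SD of 14.4 and 13.8 over joins, so the difference is small beside the spread of single joins.

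Members used J segments nearer to TRAC than the other called cells did. The mean TRAJ number of productive TRA was 35.1, 35.2, 34.8 and 35.8 over clones without a nonproductive TRA. The difference of the members' productive TRA from these was -1.70, -2.58, -1.62 and -3.48 (mean -2.35 ± 0.873), and that of their nonproductive TRA -2.03 ± 0.866. Both had the same direction in 4 of 4 libraries (exact two-sided sign-flip permutation p = 0.125 for each, the smallest possible). The lower number was not particular to members. Cells with 2 productive TRA and no nonproductive TRA had mean TRAJ numbers of 33.4, 33.6, 32.5 and 34.2, also below those of the clones without a nonproductive TRA.

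The V segments of both alleles showed no such relation. The rank correlation of the distance from V to TRAC between both alleles was 0.0828, 0.00564, 0.0356 and -0.0417 in the 4 libraries. Within a join, the distance of V and the TRAJ number had a rank correlation of -0.117 ± 0.107 for nonproductive and -0.173 ± 0.0676 for productive TRA, so that V segments farther from TRAC went slightly more with J segments nearer to it. The nonproductive V lay on average 930 ± 19.5 kb and the productive V 960 ± 13.7 kb from TRAC. The nonproductive V was thus nearer to TRAC, with nonproductive minus productive distances of -25.6, -12.7, -67.3 and -11.7 kb and a mean of -29.3 ± 26.1 kb, negative in 4 of 4 libraries (exact two-sided sign-flip permutation p = 0.125). It rests in part on Tet2KO NOD 1, without which it was -16.7 kb. With each cell counted once in place of each clone the differences were -0.298, -32.5, -96.0 and 39.2 kb, so that Tet2KO NOD 2 had the opposite direction.

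The nonproductive RNA was read at lower levels than the productive RNA of the same cell. The median nonproductive contig had 2, 3, 2 and 2 UMIs and the median productive contig of the paired cells 6, 7, 6 and 6. The mean log2 ratio was -1.17, -1.24, -1.20 and -1.13, with a mean of -1.18 ± 0.0455, which is 2.27-fold fewer UMIs (SD, n = 4 libraries; exact two-sided sign-flip permutation p = 0.125, the smallest possible). The nonproductive TRA had fewer UMIs than the productive one in 77.6% ± 2.13 of joins and more in 11.7% ± 1.83. The highest nonproductive contig had 181 UMIs. A contig must be read at least 1 time to count, so cells whose nonproductive RNA was not captured are missing from the ratio.

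**Figure D3:**
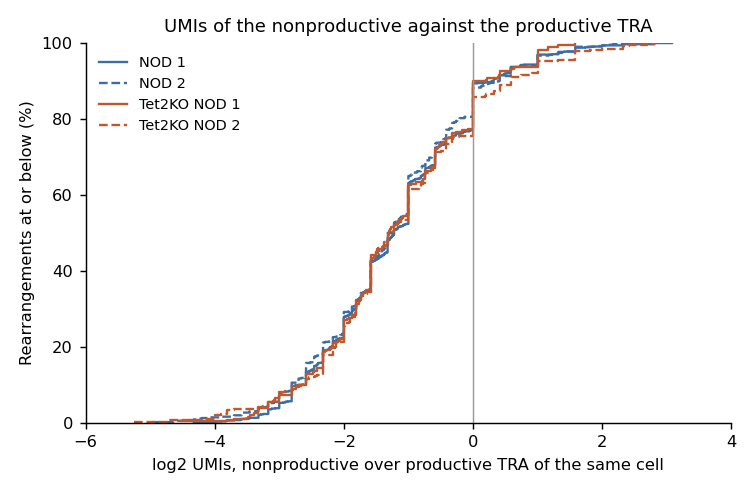
Cumulative share of joins (vertical, in percent) by the log2 ratio of nonproductive over productive UMIs in the same cells (horizontal), 1 line for each library. The 4 lines lie close together, and 75.4% to 80.5% of joins lie below 0, where both would have the same number of UMIs.

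The gap was wider than between 2 productive TRA of 1 cell. In cells with 2 productive TRA, the lower of both had a log2 ratio to the higher of -0.718, -0.711, -0.947 and -0.753. In pairs with a nonproductive TRA the lower over the higher, whichever it was, came to -1.45, -1.47, -1.43 and -1.48. Here each paired cell counted once, and not each clone with its join. The difference was -0.675 ± 0.128 in 4 of 4 libraries (exact two-sided sign-flip permutation p = 0.125). Over paired cells of all 4 libraries whose junction could be placed, the mean log2 ratio was -1.43 in 719 cells with an out-of-frame join and -0.658 in 62 cells with an in-frame join on a nonproductive contig. This last pair of values pools cells of all libraries and was given no test; with 5 to 35 in-frame cells in a library, the in-frame values ranged from -1.32 in Tet2KO NOD 1 to -0.178 in Tet2KO NOD 2.

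More TRAV than TRAJ segments passed the test of nonproductive against productive joins. The 2136 nonproductive joins were set against the 2096 productive TRA of the same cells, with the library as a block in edgeR's quasi-likelihood test. Of 100 TRAV and TRAJ segments with a total of at least 20 joins, 22 passed an adjusted p of 0.05 (22% of those tested), 11 higher (11%) and 11 lower (11%) among nonproductive joins; 32 had an unadjusted p below 0.05. The shares of the classes did not overlap over the 4 libraries for 26% of those tested. Of the 58 TRAV tested 20 passed, and of the 42 TRAJ 2 passed. The median log2 difference over all segments was 0.08. The typical size of a difference, its median absolute log2 value, was 0.78 for TRAV and 0.34 for TRAJ. A call by DESeq2's Wald test was made for 8 segments, and 8 of the 22 kept theirs under every alternative that tested them: TRAV10D, TRAV12N-1, TRAV13N-3, TRAV13N-4, TRAV15D-1-DV6D-1, TRAV16N, TRAV5N-4 and TRAV6-7-DV9. Leaving out NOD 1, Tet2KO NOD 1 or NOD 2 left 13, 14 and 15 calls, and leaving out joins read with 1 UMI left 14. The names are those of the closest reference segment, so copies marked D or N are uncertain, and NOD alleles may differ from GRCm38.

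The V segment that stood farthest apart occurred only among nonproductive joins of the paired cells. TRAV6-7-DV9 (chr14:53709902-53710419, plus strand), a TRAV segment that its name also lists as a delta chain V, made up 12, 5, 9 and 6 nonproductive joins (1.21%, 0.894%, 3.24% and 1.94%). It made up 0 of the 2096 productive ones, which allows a share of up to 0.143% (3 counts over the 4 libraries). Its share was at least 10.5-fold higher among nonproductive joins (adjusted p = 0.000177, edgeR quasi-likelihood test). Over all called cells it was named in 57 nonproductive contigs, all full length, and in 1 productive contig. None of its junctions could be placed for frame, because too few productive contigs carry it.

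Other V segments were more common among nonproductive than productive joins in all 4 libraries, without overlap. TRAV13N-4 (chr14:53362267-53364106) made up 1.28% ± 0.403 against 0.139% ± 0.178 (SD, n = 4 libraries), or 25 joins against 2, a ratio of 12.3 with an exact 95% counting interval of 3.06 to 107. TRAV13N-3 (chr14:53337122-53337639) had 31 joins against 3, a ratio of 10.1 (3.16 to 51.8), and TRAV4N-4 19 against 3, a ratio of 6.21 (1.83 to 32.8). Their adjusted p were 0.0012, 0.000637 and 0.00504 in edgeR's quasi-likelihood test. Of their nonproductive contigs in called cells, 20 of 37, 68 of 72 and 16 of 25 were full length. For TRAV13N-4, 6 of the 8 contigs that could be placed were in frame, and 13 of the 18 alternatives tested it. TRAV15D-1-DV6D-1 (1.16% against 0.143%), TRAV12N-1 (1.98% against 0.508%), TRAV7N-5 (2.55% against 0.806%) and TRAV13-2 (3.41% against 1.37%) had log2 differences of 2.53, 1.96, 1.56 and 1.47. Of the nonproductive TRAV12N-1 contigs, 58 of 107 were full length. TRAV3-3 (4.44% ± 1.03 against 2.38% ± 0.495) had a log2 difference of 0.77 ± 0.24 (SE, adjusted p = 0.0245, edgeR). It lost its call in 4 of 18 alternatives, among them without NOD 2 or without either Tet2KO NOD library (adjusted p 0.0630 to 0.224). TRAV7N-5 lost its call in 4 of 18 and TRAV13-2 in 2 of 18, among them without NOD 1 (0.137 and 0.0539). TRAV4N-4 lost its call in 2 of the 12 that tested it, among them with each cell counted once (0.114).

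TRAV12N-2 (chr14:53226773-53227400) had the highest mean share of nonproductive joins among V segments, with 7.27%, 5.01%, 7.19% and 5.50% of them against 2.67%, 3.47%, 0.746% and 4.90% of productive ones. Within NOD 2, TRAV6D-6 (6.44%) and TRAV6N-7 (5.37%) had higher shares, and within Tet2KO NOD 2 TRAV3-3 (5.83%) did. Its log2 difference was 1.11 ± 0.30 (adjusted p = 0.0102, edgeR). This is the segment whose nonproductive contigs were mostly not full length, and with full-length contigs only the difference was -0.22 (adjusted p = 0.665). TRAV6D-6 followed at 4.86% ± 1.20 against 2.84% ± 1.29 and was higher in 3 of 4 libraries. It passed with an adjusted p of 0.0479 in edgeR and lost its call in 7 of 18 alternatives. Among these the adjusted p was 0.354 without NOD 2 and 0.477 with each cell counted once. TRAV12N-2 itself lost its call, with its direction kept, in 4 of 18, among them without NOD 1 (0.204) and without Tet2KO NOD 1 (0.0887). The other common V segments, TRAV6N-7 (4.72% ± 0.775 against 4.27% ± 0.826) and TRAV5-4 (4.52% ± 1.13 against 6.41% ± 1.55), did not pass, with adjusted p of 0.601 and 0.131.

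The V segments that were rarer among nonproductive joins were rarer in all 4 libraries, without overlap. TRAV10D (chr14:52810934-52811496) made up 0.909%, 1.43%, 0.360% and 0.647% of nonproductive joins and 4.41%, 4.74%, 2.99% and 2.29% of productive ones, a log2 difference of -2.07 ± 0.26 (SE, adjusted p = 2.68e-05, edgeR). TRAV16N (chr14:53351028-53351621) made up 2.02%, 1.97%, 2.16% and 1.62% against 6.78%, 6.20%, 4.10% and 8.17%, a log2 difference of -1.71 ± 0.26 (adjusted p = 0.000121, edgeR). TRAV5N-4 (chr14:53312904-53313422) made up 0.707%, 0.537%, 0.360% and 0.971% against 3.18%, 1.82%, 3.73% and 3.59%, a log2 difference of -2.13 ± 0.33 (adjusted p = 0.000121, edgeR). All 3 kept an adjusted p below 0.05 under each alternative run. The others were TRAV9-1 (1.59% against 4.06%), TRAV21-DV12 (0.827% against 2.31%), TRAV10N (0.481% against 2.09%), TRAV9N-4 (0.476% against 1.72%), TRAV14-1 (0.300% against 0.996%) and TRAV6-4 (0.120% against 0.959%), with log2 differences from -1.27 to -2.14. Of these, TRAV14-1 and TRAV21-DV12 lost their call in 6 alternatives each, and TRAV9-1 and TRAV9N-4 in 1 each. TRAV10N lost its call in 3, among them without NOD 1 (0.0517) and without Tet2KO NOD 1 (0.0656). TRAV6-4 lost its call in 2, among them without Tet2KO NOD 1 (0.0972).

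**Figure D4:**
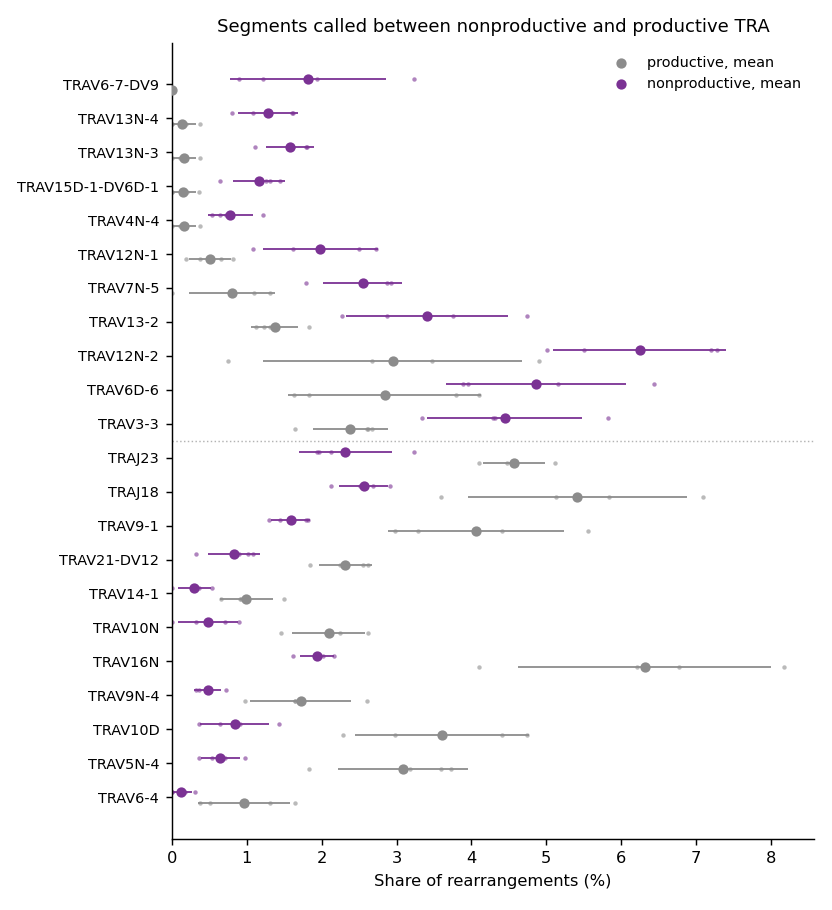
Share of joins (horizontal, in percent) for the 22 segments that passed the test, nonproductive in purple and productive in grey; large points are means and bars SDs of 4 libraries, small points the libraries. The 11 segments above the dotted line had a higher and the 11 below it a lower share among nonproductive joins.

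Summed by family, several V families had shares that differed between the classes in the same direction in every library; over all segments tested, 11% passed as higher and 11% as lower. The TRAV13 family made up 13.4% ± 1.13 of nonproductive and 7.75% ± 0.946 of productive joins; 3 of its 6 members tested were higher and 0 lower, with a median log2 difference of 1.28 against 0.08 over all segments tested, and TRAV13-1 had a log2 difference of -0.27. The TRAV12 family made up 11.3% ± 1.97 against 5.76% ± 1.88, with 2 of 4 higher. TRAV12N-2 made up 6.24% and 2.95% of joins in this sum, and its own difference was -0.22 with full-length contigs only. The TRAV9 family made up 4.05% ± 0.790 against 9.35% ± 0.781, with 2 of 4 lower and a median of -1.09. The TRAV5 family made up 6.23% ± 0.931 against 11.6% ± 2.18, with 1 of 3 lower. The TRAV10 family made up 1.57% ± 1.17 against 5.70% ± 0.755, with 2 of 2 tested lower; its other member, TRAV10, was named in 16 nonproductive contigs, of which 0 were full length, and in 0 productive ones. In each of these 5 families the direction of the summed share was the same in 4 of 4 libraries.

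Members of the TRAV6 family moved both ways, with 2 of 9 higher and 1 lower. The family's sum, 18.6% ± 1.41 against 14.4% ± 1.38, was higher in 4 of 4 libraries. The families TRAV4 (1 of 3 higher), TRAV7 (1 of 8 higher), TRAV8 (0 of 3) and TRAV14 (1 of 6 lower) had median log2 differences of 0.12, -0.41, -0.08 and 0.08. In the TRAV15 and TRAV16 families 1 segment each was tested, those named above. The summed share was higher in 4 of 4 libraries for TRAV15 and lower in 4 of 4 for TRAV16. The copies marked N held 6 higher and 4 lower of 19, and those marked D 2 higher and 1 lower of 10, with medians of 0.38 and -0.16. Of the V segments nearest to TRAC (TRAV17 to TRAV21) 1 of 3 was lower, and of those farthest (TRAV1 to TRAV3) 1 of 4 was higher. Segments with a joint TRAV and DV name had 2 higher and 1 lower of 5. These counts stand beside 11% in each direction over all segments tested, and no list was tested as a group. No segment annotated as a pseudogene in GENCODE was named in any nonproductive contig.

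Of the 42 TRAJ segments tested 2 passed, both lower among nonproductive joins. The TRAJ numbers of both alleles correlated, so the classes are not independent in J use. TRAJ18 (chr14:54200777-54200842), the J of the invariant NKT-cell receptor, made up 2.12%, 2.68%, 2.52% and 2.91% of nonproductive joins against 5.13%, 5.84%, 7.09% and 3.59% of productive ones. Its log2 difference was -1.13 ± 0.24 (SE, adjusted p = 0.00186, edgeR). TRAJ23 (chr14:54196081-54196140) made up 2.12%, 1.97%, 3.24% and 1.94% against 4.11%, 5.11%, 4.48% and 4.58%, a log2 difference of -1.02 ± 0.23 (adjusted p = 0.00284, edgeR). Neither overlapped between the classes; TRAJ18 had an adjusted p of 0.0533 without NOD 1, and DESeq2 called neither (0.169 and 0.225). The most common J segments of nonproductive joins, TRAJ31 (4.74% ± 0.780), TRAJ32 (4.61% ± 1.09), TRAJ40 (4.22% ± 1.39) and TRAJ37 (4.06% ± 0.998), did not pass, with log2 differences of 0.40, 0.43, 0.03 and 0.07. The log2 difference farthest from 0 among the TRAJ tested, -1.26 at TRAJ44 (0.529% ± 0.470 against 1.65% ± 0.790, lower in 4 of 4 libraries), did not pass either, with an adjusted p of 0.0827 in edgeR. That of TRAJ16 was 1.00 and that of TRAJ4 0.95, with adjusted p of 0.131 and 0.155.

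**Figure D5:**
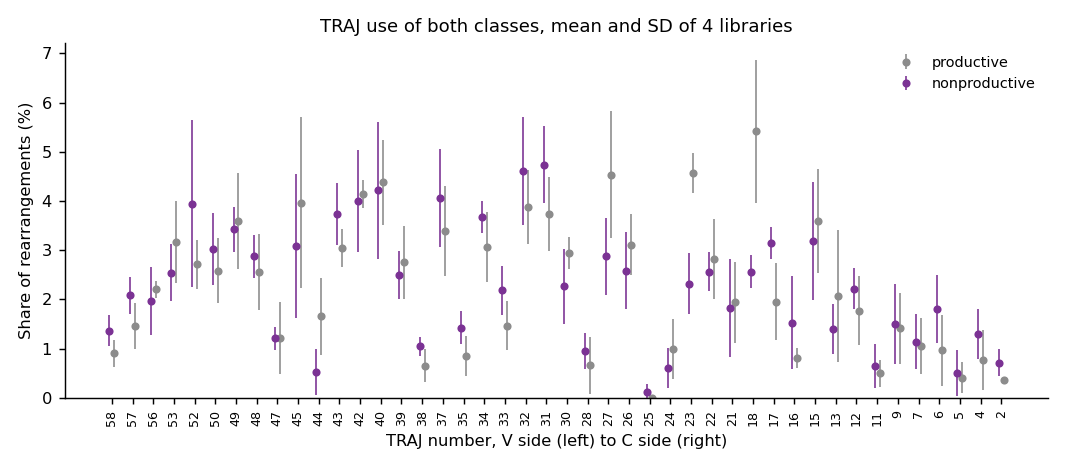
Share of joins (vertical, in percent) for each TRAJ segment from the V side (left) to the TRAC side (right), nonproductive in purple and productive in grey; points are means and bars SDs of 4 libraries. The bars of both classes stand apart at TRAJ18 (2.56% against 5.41%) and TRAJ23 (2.32% against 4.57%), the 2 that passed the test. They also stand apart at TRAJ17 (3.15% against 1.95%) and TRAJ2 (0.711% against 0.369%), which did not pass.

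Summed over stretches of the locus, the shares of both classes lay within 1 SD of each other. TRAJ58 to TRAJ40 made up 38.0% ± 1.39 of nonproductive and 37.6% ± 2.54 of productive joins, with 0 of 14 segments passing. TRAJ39 to TRAJ21 made up 40.3% ± 1.25 against 41.4% ± 3.81, with 1 of 16 lower. TRAJ20 to TRAJ2 made up 21.6% ± 1.80 against 21.0% ± 1.43, with 1 of 12 lower. Their median log2 differences were 0.03, 0.12 and 0.47 against 0.08 over all segments tested.

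The germline sequences of the 2 J segments that passed, and of 2 more chosen after their values were seen, are shown because their joins were classed unevenly: TRAJ18 and TRAJ23 were rarer among nonproductive joins, TRAJ25 was never productive, and TRAJ35 was in frame in 55 of its 69 placed nonproductive contigs, though in 2 of 8 in Tet2KO NOD 2. They were read from GRCm38, plus strand; capitals mark the codons of the motif with which the J begins its framework, phenylalanine or tryptophan, glycine, any residue, glycine.
TRAJ18 at chr14:54200777-54200842: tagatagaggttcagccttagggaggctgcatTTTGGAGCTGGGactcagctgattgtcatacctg
TRAJ23 at chr14:54196081-54196140: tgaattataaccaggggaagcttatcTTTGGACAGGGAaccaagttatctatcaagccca
TRAJ25 at chr14:54194815-54194871: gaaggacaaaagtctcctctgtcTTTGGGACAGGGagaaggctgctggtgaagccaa
TRAJ35 at chr14:54183774-54183838: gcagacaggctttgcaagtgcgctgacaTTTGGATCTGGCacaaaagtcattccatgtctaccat

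TRAJ25 occurred in 8 nonproductive and 0 productive contigs of called cells, although its reference sequence holds the motif in an open frame. Among the paired cells, with each clone and its join counted once, it made up 3 nonproductive joins. TRAJ35 occurred in 98 nonproductive and 105 productive contigs. The motif, searched in the 3 frames of the plus strand, occurred in 45 of the 60 TRAJ genes of GENCODE (75%) and in 43 of the 44 named in these contigs, the exception being TRAJ44. A match describes the reference and not the NOD allele.

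V and J pairs known from named T-cell populations were counted in both classes. The pair of the invariant NKT receptor, TRAV11 family with TRAJ18, made up 3 of 2136 nonproductive and 12 of 2096 productive joins. TRAV16 family with TRAJ42 made up 5 and 30, and TRAV1 with TRAJ33, the pair of mucosal-associated invariant T cells, 0 and 1. These counts were given no test. No count expected from the use of each V and J was computed, so they do not show that a pair was rare among nonproductive joins.

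The genotypes were compared among nonproductive joins, most of which code for no chain that could be selected. Of the paired cells whose junction could be placed, 62 had an in-frame and 719 an out-of-frame join. The nonproductive TRAJ number also went with that of the productive TRA (rank correlations of 0.653 to 0.741). J use among these joins is therefore not independent of the selected chain. Of 76 segments with a total of at least 20 nonproductive joins, 0 passed an adjusted p of 0.05 in edgeR's quasi-likelihood test (0%), 7 had an unadjusted p below 0.05, and DESeq2 called 0. The shares did not overlap between the genotypes for 39 segments (51.3%). The 3 higher and 3 lower segments with the lowest p among these are given as values. TRAV6N-5 made up 0.808% and 0.537% of the joins in NOD and 1.80% and 1.94% in Tet2KO NOD. TRAJ15 made up 2.32% and 2.33% against 3.24% and 4.85%, and TRAV6-7-DV9 has its values above. TRAJ45 made up 3.74% and 4.83% against 2.16% and 1.62%, TRAJ21 2.42% and 2.86% against 0.719% and 1.29%, and TRAV1 1.01% and 2.15% against 0.360% and 0.324%. Their adjusted p in edgeR were 0.429 to 0.462. A p above the threshold with 2 pools of mice in each genotype does not show that the segments were used alike.

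The other measures overlapped between the genotypes. The mean nonproductive TRAJ number of NOD was 33.3 ± 0.152 and that of Tet2KO NOD 33.1 ± 0.709 (SD over 2 libraries each; exact two-sided permutation p = 1). The rank correlation between both J segments was 0.686 ± 0.0135 and 0.697 ± 0.0622 (exact permutation p = 1), and the log2 UMI ratio -1.20 ± 0.0505 and -1.17 ± 0.0489 (exact permutation p = 0.667). The smallest p that these exact tests allow is 0.333. Whether the difference between nonproductive and productive use depends on genotype was tested with an interaction term in edgeR: 0 of 100 segments passed, 3 had an unadjusted p below 0.05 and the lowest adjusted p was 0.879.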

How the data were processed

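The deposited contig tables give whole-number counts of reads and UMIs for each contig, per the file headers, with chain, segments, CDR3 and flags; contig length was deposited by the authors and not used. Contigs were made with Cell Ranger 7.0.1 and the build GRCm38 (mm10), per the submitters' processing notes, with a V(D)J segment set not given in the sources used here. Productive chains were full-length, high-confidence and productive contigs of called cells. The members and lists were chosen with earlier results of these data known. Frames were found by matching the outer 6 bases of each CDR3 to germline V (last 45 bases) and J of GRCm38 with GENCODE M21, where at least 5 productive contigs set a segment's frame. All 4 libraries entered each fit. Joins for each segment were tested with edgeR 4.0.16 (R 4.3.3; quasi-likelihood, TRAV and TRAJ in 1 fit, library size the number of joins, no further factor), Benjamini-Hochberg over all segments with a total of at least 20 joins, with DESeq2 1.42.0 as an alternative. The edgeR fit was tested on simulated data. p-values over 4 libraries are exact sign-flip or permutation tests. Nothing says more of the separation of pools than their set numbers, so p-values measure at most the spread between these libraries. Those of edgeR rest largely on the counting error of joins. The common dispersion was 0.00082 in the fit of the classes and 9.8e-05 in that of the genotypes. Set numbers were not taken to pair the pools: 2 sets are too few, and the deviations of same-numbered libraries correlated at 0.229 over 76 segments. Named segments were up to 10 higher and 10 lower with the largest log2 difference among those passing (the 11th of each was added), the 4 TRAV and 4 TRAJ with the highest nonproductive share, and, between genotypes, among segments that did not overlap, the 3 of each direction whose unadjusted p was lowest. The alternatives tried concern which contigs and cells count, the scaling and the filter, and each library left out.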

Additional observations from a re-analysis of the deposited data

Results flagged for a closer look

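Of the nonproductive contigs, 13 carried the name of a TRBJ or TRDJ segment beside a TRAV segment, 10 in NOD 1 and 3 in NOD 2, which is above the 3 that a count of 0 allows; they count as members by the rule and entered no V and J comparison. A constant segment of the beta chain (TRBC) was named on 11 nonproductive TRA contigs, 8 in NOD 1 and 3 in NOD 2. The Tet2KO NOD libraries held 0 of either, among 569 and 490 contigs. Groups of 2 libraries are too small for a search for outlying libraries, and 0 of 100 segments passed the interaction test between genotypes in edgeR, with 3 at an unadjusted p below 0.05.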

How the results depend on the processing

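Contigs without the CDR3 of the productive TRA and contigs without an in-frame junction were alternatives chosen after seeing the data. The share of members moved to 21.0% with at least 2 UMIs and to 23.7% with full-length contigs only, by construction, and was 27.9% to 29.4% with 1 library left out. The count of segments separating nonproductive from productive joins was 8 with DESeq2, 14 with at least 2 UMIs, 14 with a total of at least 40 (fewer segments tested), and 13 to 20 with 1 library left out; it was 19 to 25 in all other settings, and 23 with no replicate block (library term left out). Between genotypes it was 0 in every setting run, the replicate block (set number) included. The genotype difference in the mean nonproductive TRAJ number, -0.15, turned to 0.29 with at least 2 UMIs and lay between -0.65 and 0.35 with 1 library left out; with the replicate block (within-set differences) it was -0.15, with an exact permutation p of 1. The cause of these changes was not tested. The rank correlation of both J segments stayed between 0.668 and 0.711, the log2 UMI ratio between -1.22 and -0.86 (the latter with at least 2 UMIs), and the J position difference between 0.11 (each cell counted once, where 2 of 4 libraries turned) and 0.61. Among named segments the direction turned for TRAV12N-2 with full-length contigs only (-0.22). It also turned for TRAJ37, between -0.18 and 0.56 with 1 library left out, and for TRAJ40, at -0.081 with cells of over 1 TRB kept, -0.19 with each cell counted once, -0.040 with DESeq2, and between -0.21 and 0.18 with 1 library left out. None of the turned values passed the test. Without 1 library, clone agreement was 94.2% to 96.3% and the full-length share 80.1% to 81.5%. Depth is a limit: 28.0% of nonproductive contigs had 1 UMI.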
